A study of Mus musculus with 3 samples.

Results

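Fc gamma receptors bind the constant part of IgG and let antibody-coated particles and immune complexes act on a cell. The group described here comprised 6 genes of the 32285 in the deposited annotation, chosen by symbol and found in all 3 libraries. Fcgr1, Fcgr3 and Fcgr4 encode the activating receptors of the mouse. Fcgr2b encodes its inhibitory receptor. Fcer1g encodes the common gamma chain that carries the signal of the activating receptors, and Fcgrt encodes the heavy chain of the neonatal Fc receptor FcRn.

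The data were single-cell 5′ RNA libraries from mouse spleen, in which T cells had been removed with CD3 microbeads, and there were 3 libraries. The control library held sham-pumped male C57BL/6 mice together with female C57BL/6 mice. The Ang II library held C57BL/6 mice given angiotensin II, a vasoconstrictor peptide that raises blood pressure, at a dose the labels give as 490 ug/kg/min by minipumps of 2 weeks from 10 weeks of age, with placebo or with 2-hydroxybenzylamine (2-HOBA), a scavenger of reactive lipid aldehydes. The B6.SLE123 library held mice of the C57BL/6 background that carry lupus susceptibility intervals (Sle1, Sle2 and Sle3), given 2-HOBA or placebo for 6 weeks from 7 weeks of age. The labels place the 3 libraries at 12 to 14 weeks of age. Each condition combined 3 mice, and each library mixed 2 conditions whose cells carried antibody hashtags. There were 6 hashtags, C0301 to C0306, in every library, and no label used here ties a hashtag to a condition, so the effect of 2-HOBA was not analysed and a hashtag of one name does not pair cells across libraries. Sex was mixed in the control library, while the study's methods give only female mice for the lupus experiment, so that sex, strain, treatment and library cannot be told apart. Each group was 1 library, and no test between groups was possible. The intervals given here are 95% intervals that cover counting error only.

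Activating Fc gamma receptors signal through the immunoreceptor tyrosine-based activation motif (ITAM) of the gamma chain and the kinase Syk, and drive phagocytosis, cytokine release and killing by phagocytes and NK cells. Fcgr2b carries an inhibitory motif (ITIM) that recruits the phosphatase SHIP1, and it is the Fc gamma receptor of B cells, where it restrains signals from the B cell receptor. FcRn returns IgG from endosomes to the cell surface and so protects it from breakdown. The balance of activating to inhibitory receptor on a cell is commonly written as an A/I ratio.

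The genes lie close together. In GRCm38, Fcgr2b (ENSMUSG00000026656) is at chr1:170958617-170976547 on the minus strand. Fcgr4 (ENSMUSG00000059089) is at chr1:171018920-171029761 on the plus strand, Fcgr3 (ENSMUSG00000059498) at chr1:171051174-171064935 on the minus strand and Fcer1g (ENSMUSG00000058715) at chr1:171229572-171234365 on the minus strand. These 4 genes fall within 276 kb. Fcgr1 (ENSMUSG00000015947) is at chr3:96282909-96293969 and Fcgrt (ENSMUSG00000003420) at chr7:45092990-45103851, both on the minus strand. Fcgr2b and Fcgr3 are near-identical in part of their transcripts. Of the 50-base windows of their annotated transcripts, 166 were shared, which was 4.48% of the 3708 windows of Fcgr2b and 12.3% of the 1345 windows of Fcgr3. No other pair of members shared a window. Reads were counted against the C57BL/6 reference, and whether an allele of B6.SLE123 mice changes the counting was not tested.

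Fcgr2b and Fcgr4 were the members whose pooled levels in mononuclear phagocytes differed most between B6.SLE123 and control, in opposite directions. Without B6.SLE123 hashtag C0303 the log2 ratios were -0.79 for Fcgr2b, 0.091 for Fcgr4 and 0.75 for Fcgrt, so this order did not hold. With Ang II Fcgr2b was at 0.03 and Fcgr4 at -1.21. The sequence before the RefSeq starts of Fcgr2b and Fcgr4 is shown because of the pooled values. The 250 bases before the RefSeq start were searched on both strands for GAGGAA, a core bound by PU.1-type factors, for TTCNNNGAA, the GAS element of STAT dimers, and for an ISRE-type element of interferon responses, GAAA repeated after any 2 bases. Capitals mark a match, which on the minus strand reads as its complement, and positions count back from the start site.
Fcgr2b, GRCm38.p6, chr1:170976072-170976321, minus strand: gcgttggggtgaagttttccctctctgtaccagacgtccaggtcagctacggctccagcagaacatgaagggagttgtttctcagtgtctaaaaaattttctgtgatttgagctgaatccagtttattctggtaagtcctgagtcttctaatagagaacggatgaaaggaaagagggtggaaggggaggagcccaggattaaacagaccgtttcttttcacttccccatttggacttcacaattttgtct
Fcgr4, GRCm38.p6, chr1:171018676-171018925, plus strand: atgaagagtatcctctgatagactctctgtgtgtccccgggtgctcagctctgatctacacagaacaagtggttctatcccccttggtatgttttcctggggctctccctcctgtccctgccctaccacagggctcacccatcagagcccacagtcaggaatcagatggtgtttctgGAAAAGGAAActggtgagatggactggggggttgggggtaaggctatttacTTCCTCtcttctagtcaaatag
The Fcgr2b window held none of the 3 motifs. This window lies inside the gene position given above, downstream of the gene's upstream end at 170976547. The bases before that end were not searched. The Fcgr3 windows also lie inside the position of their gene. The DNA probe that the study used for the C1q PU.1 site holds no GAGGAA on either strand. A window without a match can therefore still hold a PU.1 site. The Fcgr4 window held 1 PU.1-type core at -22 and 1 ISRE-type element at -73. Fcgr1 had 1 PU.1-type core at -55 and 1 GAS element at -109, and Fcgr3 had 1 PU.1-type core. Among 32851 promoter windows of the same length, 23.3% held GAGGAA, 7.02% held TTCNNNGAA and 2.98% held the ISRE-type element. These matches describe letters of the reference sequence only, and binding was not measured. The sequence of B6.SLE123 mice was not examined.

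The libraries held 44146350 (control), 59043555 (Ang II) and 63516694 (B6.SLE123) gene UMIs (unique molecular identifiers, each standing for 1 captured molecule) over 18218, 16062 and 20691 barcodes. After filtering, 15698, 14014 and 16691 cells remained, with medians of 1759, 2724 and 1888 UMIs per cell. Pairs of libraries shared 415 to 496 barcodes. Cells were gated by marker genes that included no member of the group. Levels are CPM, the UMIs of a gene per 1e6 UMIs summed over a class, and UMIs of 5′ ends need no scaling by gene length, although capture can differ between genes. Gates placed 13045, 11316 and 12591 cells as B cells and 592, 368 and 1001 as mononuclear phagocytes. In B6.SLE123, hashtag C0303 stood apart, with 439 of the 1001 mononuclear phagocytes. Values without it are given beside many of the phagocyte results, and a phagocyte value given without one can also have moved.

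**Figure D1:**
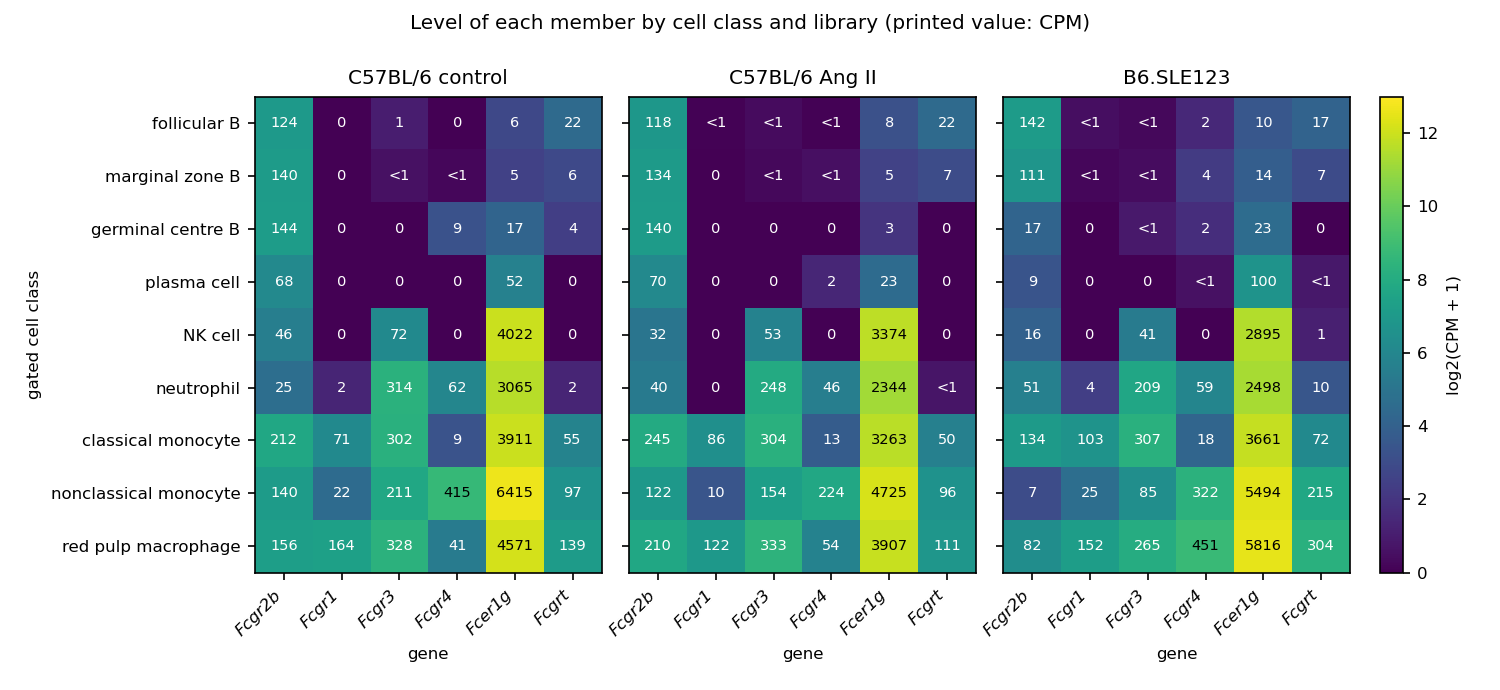
Level of each of the 6 genes (CPM of summed UMIs) by marker-gated class in each of the 3 libraries, with the value printed in each cell. Fcgr2b spanned B cells and myeloid cells and was also found in NK cells. Fcgr1 and Fcgr4 lay mostly in myeloid classes, and Fcgr3 and Fcer1g mostly in myeloid and NK cells.

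Most UMIs of Fcgr2b, the inhibitory receptor, came from B cells, which were also most of the cells. B cells held 85.4% of its UMIs in control spleen and 86.6% in each of the other 2 libraries. They were 83.1%, 80.7% and 75.4% of the kept cells in control, Ang II and B6.SLE123. Fcgr2b read 212, 245 and 134 CPM in classical monocytes, above its level over B cells in each library. Its level over all gated B cells was 124 CPM in the control (3383 UMIs), 123 CPM after Ang II (4373 UMIs) and 122 CPM in lupus-prone mice (B6.SLE123, 3614 UMIs). On the log2 scale B6.SLE123 differed from the control by -0.03 (-0.09 to 0.04), and Ang II by -0.01 (-0.08 to 0.05). Levels by hashtag ran from 116 to 141 CPM, from 115 to 133 CPM and from 111 to 152 CPM in the 3 libraries, so the hashtags overlapped throughout. The share of B cells with a Fcgr2b UMI was 21.4%, 29.1% and 22.5%. After each cell was thinned to 1000 UMIs it was 11.9%, 11.5% and 12.0%.

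This level over all B cells combined gated classes whose levels differed. Follicular B cells, which recirculate, had 124 CPM in the control, 118 CPM with Ang II and 142 CPM in B6.SLE123. The log2 ratio of the last was 0.20. The follicular gate held 3734, 5200 and 2184 cells in the 3 libraries. B cells placed in no sub-class numbered 7467, 4115 and 8053, with 116, 118 and 129 CPM. Marginal zone B cells, which sample blood-borne antigen, had 140, 134 and 111 CPM, and the log2 ratio was -0.33 in B6.SLE123. B cells with T-bet and CD11c markers, a class linked to autoimmunity, had 422 CPM in the Ang II library (21 cells) and 270 CPM in B6.SLE123 (120 cells), and the control held 7 such cells with 12 UMIs. In the Ang II and B6.SLE123 libraries this class therefore read above every other gated class, while the control held too few such cells to rank. Of its cells, 47.6% in the Ang II library and 75.8% in B6.SLE123 lay within 1 UMI of the gate limit.

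In germinal centre B cells, which mutate and select their antibody genes, Fcgr2b was far lower in the B6.SLE123 library. The control had 144 CPM (99.3 to 203) from 33 UMIs in 45 cells. The Ang II library had 140 CPM (104 to 185) from 49 UMIs in 60 cells. B6.SLE123 had 17.2 CPM (12.2 to 23.5) from 39 UMIs in 436 cells, which was 8.38-fold lower than the control, with a log2 ratio of -3.07 (-3.77 to -2.35). Ang II differed from the control by -0.04 (-0.71 to 0.64) on that scale. Of the genes with at least 50 UMIs over both libraries in these cells, 10.2% lay past 2-fold in either direction between B6.SLE123 and control, and 1 of the 2 members counted there did. The B6.SLE123 hashtags read 9.99, 16.96, 11.6, 24.8, 18.4 and 16.4 CPM. Control hashtags that held such cells read 245, 98.9, 529, 199 and 75.1 CPM, each from 1 to 23 cells, and Ang II hashtags read 82.4, 0, 127.5, 243, 123 and 167 CPM, the 0 from 1 cell. Every B6.SLE123 hashtag thus lay below every control hashtag. The share of cells with a UMI was 51.1%, 50% and 7.80%, and after thinning 17.8%, 13.3% and 1.84%. The gate lay within 1 UMI of its limit for 31.1%, 18.3% and 20.9% of its cells. At 2 times the marker UMIs (36 control and 374 B6.SLE123 cells) the log2 ratio was -3.36.

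**Figure D2:**
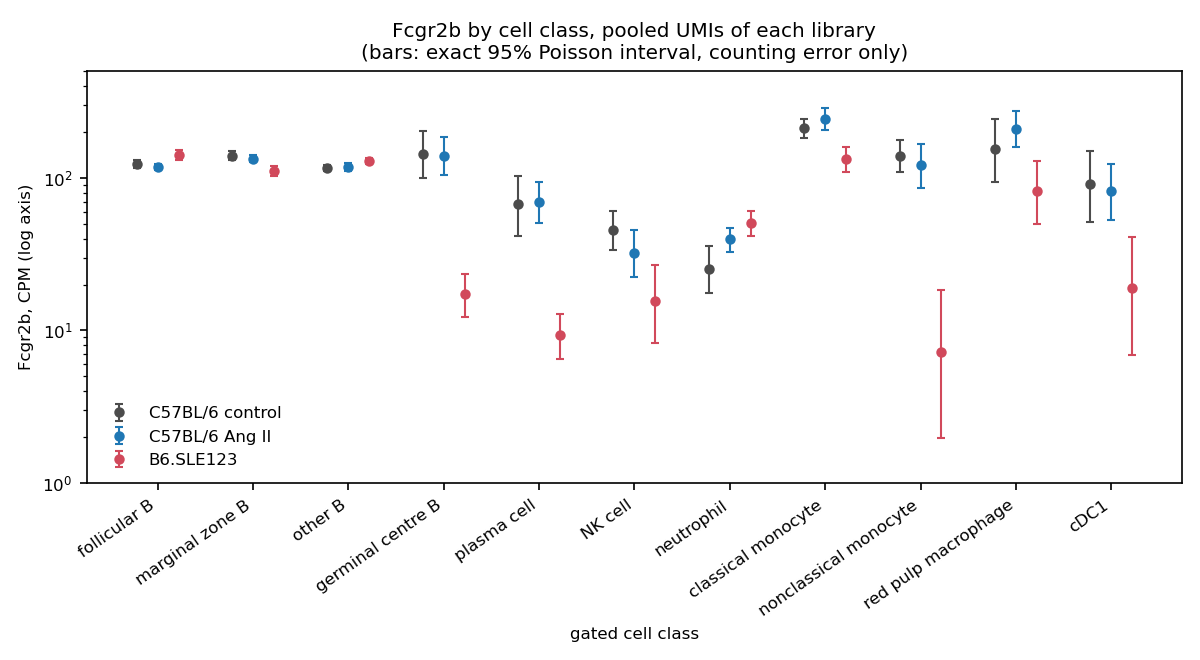
Fcgr2b level (CPM, log axis) by class and library, with exact Poisson 95% intervals as bars. Follicular B cells read 124, 118 and 142 CPM in control, Ang II and B6.SLE123, while B6.SLE123 read 17.2 against 144 CPM in germinal centre B cells and 7.23 against 140 CPM in nonclassical monocytes.

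In plasma cells, the antibody secretors, Fcgr2b was also lowest in B6.SLE123. It was at 67.7 CPM in the control (21 UMIs, 35 cells), 69.6 CPM with Ang II (43 UMIs, 46 cells) and 9.26 CPM in B6.SLE123 (36 UMIs, 401 cells). The log2 ratio was -2.87 (-3.68 to -2.02) in B6.SLE123, or 7.31-fold lower. Its hashtags ran from 3.3 to 13.2 CPM. Control hashtags that held plasma cells read 81.4, 72.1, 69.5, 0 and 71.8 CPM, the 0 from 4 cells, so that hashtag overlapped the B6.SLE123 range and the other 4 did not. In this gate 12.7% of genes lay past 2-fold in B6.SLE123, and 1 of the 2 members counted did.

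**Figure D3:**
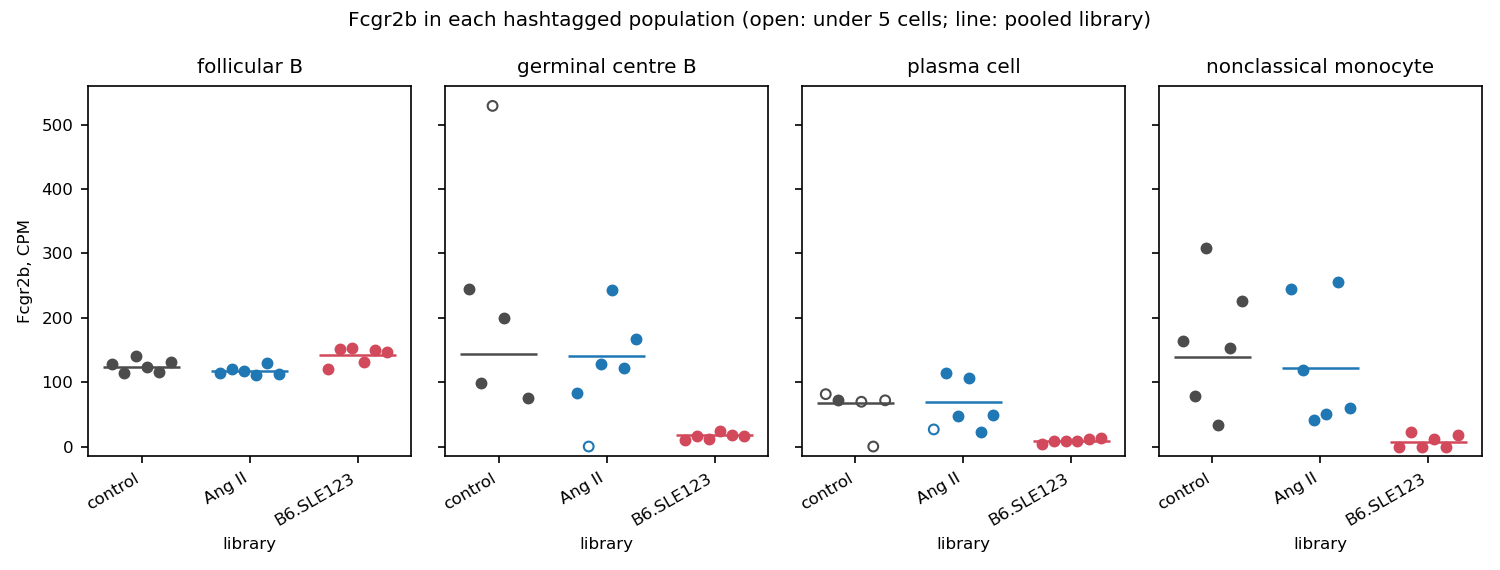
Fcgr2b level (CPM) for each hashtag that held cells, in follicular B cells, germinal centre B cells, plasma cells and nonclassical monocytes of the 3 libraries, with open points for hashtags under 5 cells and lines for the pooled library. Points overlap between libraries in follicular B cells, whereas the B6.SLE123 points lie at 9.99 to 24.8 CPM in germinal centre B cells and 3.3 to 13.2 CPM in plasma cells.

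Among myeloid cells, Fcgr2b was lowest in B6.SLE123 in the cells that patrol vessels. Nonclassical monocytes (200, 89 and 293 cells) had 140 CPM (109 to 177; 69 UMIs) in the control, 122 CPM (86.2 to 167; 38 UMIs) with Ang II and 7.23 CPM (1.97 to 18.5; 4 UMIs) in B6.SLE123. The log2 ratio was -4.27 (-6.19 to -2.85), or 19.3-fold lower, and -3.53 without C0303, and for Ang II it was -0.20. Hashtags in B6.SLE123 read 0, 23.1, 0, 12.3, 0 and 18.3 CPM, the control hashtags ran from 33.5 to 309 CPM and the Ang II hashtags from 41.6 to 255 CPM. All B6.SLE123 hashtags lay below all hashtags of the other two libraries. A UMI was found in 20.5%, 23.6% and 1.37% of the cells. In T cells of the Ang II library, which should lack the gene, it was 1.06% (3 of 283 cells, median 4354 UMIs per cell against 1547 in the B6.SLE123 monocytes), so the 4 UMIs of B6.SLE123 cannot be separated from background RNA. Ace, a defining marker, was at 1158, 888 and 753 CPM. The share of gated cells within 1 UMI of the limit was 15%, 12.4% and 33.4%, and the stricter gate gave a log2 ratio of -5.74 (152 control and 149 B6.SLE123 cells). In this gate 3.13% of genes lay past 2-fold in B6.SLE123, and 3 of the 5 members counted did, namely Fcgr2b and Fcgr3 lower and Fcgrt higher. Without C0303 Fcgr3 was at -0.84 and Fcgrt at 0.83, each less than 2-fold from the control, and of these 3 only Fcgr2b stayed past it.

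Classical monocytes kept more of the transcript, at 212 CPM in the control, 245 CPM with Ang II and 134 CPM in B6.SLE123, -0.67 (-1.01 to -0.32) on the log2 scale for the last and -0.39 without C0303. Red pulp macrophages, which clear old red cells, had 156, 210 and 82.5 CPM from 19, 55 and 19 UMIs. Cross-presenting dendritic cells (cDC1) had 91.2, 82.6 and 18.9 CPM from 15, 24 and 6 UMIs. Over all mononuclear phagocytes the levels were 150, 153 and 66.9 CPM, with a log2 ratio of -1.17 (-1.43 to -0.90) in B6.SLE123 and of -0.79 without hashtag C0303. The hashtags ran from 124 to 181 CPM in the control, from 68.1 to 190 CPM with Ang II and from 44.2 to 103 CPM in B6.SLE123, so that control and B6.SLE123 did not overlap.

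Pooled NK cells and neutrophils moved in opposite directions, although their hashtags overlapped between libraries. NK cells (534, 372 and 557 cells) had 45.9, 32.3 and 15.6 CPM, a log2 ratio of -1.56 (-2.57 to -0.65) in B6.SLE123. In NK cells 1.48% of genes lay past 2-fold, and 1 of the 3 members counted did. Cd79a, a B cell transcript, was at 30.3, 25.5 and 67.3 CPM in these gates, and the part of B cell RNA in the Fcgr2b level was not tested. Neutrophils (624, 667 and 696 cells) had 25.4 CPM (33 UMIs), 39.5 CPM (120 UMIs) and 50.5 CPM (116 UMIs). Against the control B6.SLE123 stood at a log2 ratio of 0.99 (0.42 to 1.60) and Ang II at 0.64 (0.07 to 1.24). By hashtag, Fcgr2b in NK cells ran from 9.2 to 64.6 CPM in the control and from 0 to 25.6 CPM in B6.SLE123. In neutrophils it ran from 0 to 46.9 CPM and from 21.7 to 62.8 CPM. None of the 4 members counted in neutrophils lay past 2-fold, beside 11.7% of all genes in B6.SLE123 and 3.97% in Ang II.

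Fcgr4, the activating receptor for IgG2a and IgG2b, was the member furthest above the control in B6.SLE123 phagocytes, and hashtag C0303 carried most of the difference. In mononuclear phagocytes it was at 112 CPM in the control (98.6 to 127.7; 238 UMIs), 48.7 CPM with Ang II (95 UMIs) and 520 CPM in B6.SLE123 (494 to 547; 1483 UMIs). The log2 ratio of B6.SLE123 to control was 2.21 (2.01 to 2.41), or 4.62-fold, and 0.091 without C0303. In mononuclear phagocytes 4.23% of genes lay past 2-fold in B6.SLE123, and 3 of 6 members did, with Fcgr4 and Fcgrt higher and Fcgr2b lower. Without C0303 each of these 3 was less than 2-fold from the control. By hashtag the B6.SLE123 levels were 34.3, 101, 975.1, 296, 95.2 and 44.7 CPM, while the control hashtags ran from 64.7 to 156 CPM and the Ang II hashtags from 24.2 to 131 CPM. C0303 and C0304 stood above every control hashtag, C0301 and C0306 lay below every one, and the remaining pair lay inside the control range.

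**Figure D4:**
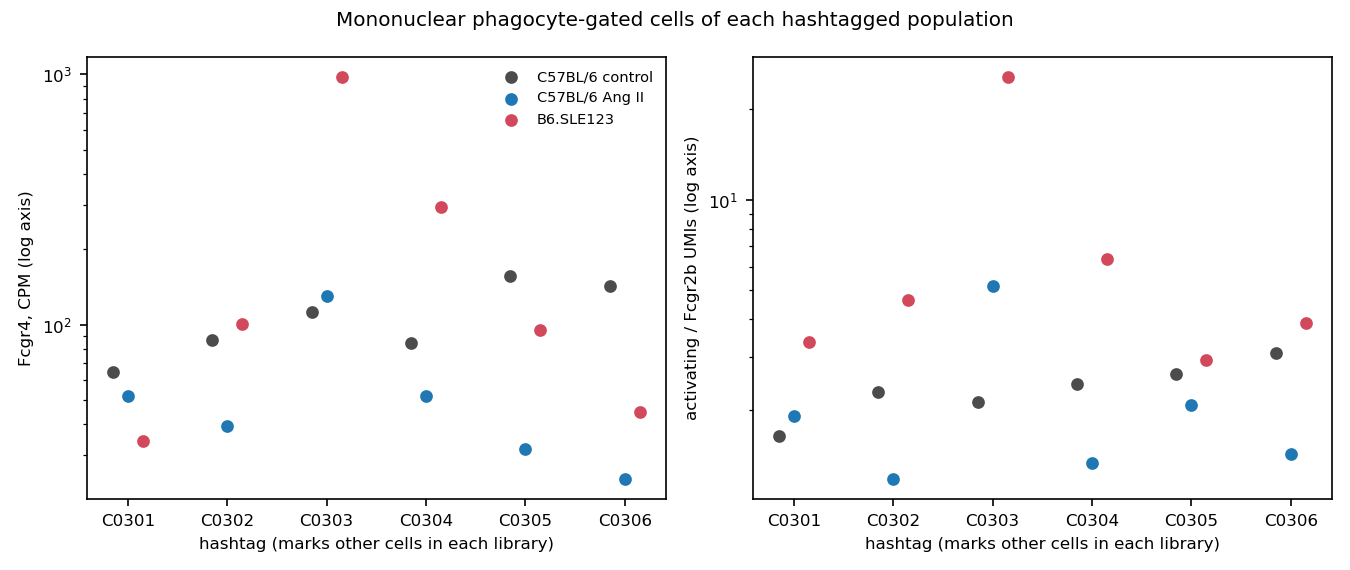
Fcgr4 level (CPM, left) and ratio of activating to Fcgr2b UMIs (right) in mononuclear phagocytes for each hashtag of each library, both on log axes. Fcgr4 in B6.SLE123 spans 34.3 to 975.1 CPM and the ratio 2.93 to 25.6, with C0303 the highest in both.

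The Fcgr4 UMIs of B6.SLE123 came largely from cells that expressed the complement genes C1qa, C1qb and C1qc. These C1q+ cells numbered 133, of which 113 carried C0303, and they had 3397 CPM of Fcgr4 (3201 to 3603; 1116 UMIs). They held 52.4% of the Fcgr4 UMIs of the library, and 85.7% of them had at least 1. The 10 cells of C0304 read 2653 CPM and the 5 cells of C0302 read 1384 CPM. Control and Ang II libraries held 2 and 1 such cells with 0 Fcgr4 UMIs, so no comparison could be made. The addition of C1q genes to the phagocyte gate was chosen after these cells had been seen outside it.

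In nonclassical monocytes, where Fcgr4 is a known surface marker, the level was 415 CPM in the control, 224 CPM with Ang II and 322 CPM in B6.SLE123. B6.SLE123 stood at a log2 ratio of -0.37 to the control, or -1.32 without C0303, and Ang II at -0.89 (-1.30 to -0.49). In red pulp macrophages Fcgr4 was at 41.0, 53.6 and 451 CPM from 5, 14 and 104 UMIs, a log2 ratio of 3.46 (2.19 to 5.11) in B6.SLE123 and of 1.36 without C0303. Cells that met both the C1q and the red pulp markers were placed in the red pulp gate. Cxcl14, at 545 CPM in the C1q+ cells of B6.SLE123, was at 0, 0 and 104 CPM in that gate. The part of C1q-expressing cells in its Fcgr4 level was not tested. In that gate 7.98% of genes lay past 2-fold in B6.SLE123, and 2 of the 5 members counted did, Fcgr4 and Fcgrt, both higher. Fcgrt had 17 UMIs in the control and 70 in B6.SLE123. Both members reached the UMIs needed to be counted through the B6.SLE123 library, so the filter favoured this count. Classical monocytes had 8.91, 12.8 and 17.7 CPM and neutrophils 61.5, 45.8 and 58.8 CPM, where the log2 ratio of B6.SLE123 went from -0.07 to -0.82 without C0303. NK cells had 0 UMIs in all 3 libraries, which allows up to 2.93, 2.94 and 3.60 CPM at 3 counts. In B cells, which should lack the gene, there were 7, 7 and 54 UMIs, or 0.256, 0.197 and 1.82 CPM, and this level was read as background.

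Fcgr3, the low-affinity activating receptor of phagocytes and NK cells, lay in the same classes in all 3 libraries. Neutrophils had 314 CPM in the control, 248 CPM with Ang II and 209 CPM in B6.SLE123, with log2 ratios of -0.34 and -0.59, the latter -0.39 without C0303. Classical monocytes had 301.96, 304.16 and 307 CPM and red pulp macrophages 328, 333 and 265 CPM. Without C0303 the log2 ratio of B6.SLE123 went from 0.02 to 0.29 in classical monocytes and from -0.31 to 0.02 in red pulp macrophages. NK cells, which use this receptor for antibody-dependent killing, had 72.2, 52.9 and 40.8 CPM. In nonclassical monocytes Fcgr3 was at 211, 154 and 84.9 CPM, a log2 ratio of -1.31 (-1.84 to -0.80) in lupus-prone mice and of -0.84 without C0303. B cells had 0.66, 0.34 and 0.44 CPM, with a UMI in 0.130%, 0.106% and 0.103% of cells, which is the background level for this gene.

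Fcgr1, the high-affinity receptor, was confined largely to phagocytes. The mononuclear phagocyte gate held 90.8%, 97.8% and 80.7% of its UMIs in the 3 libraries, and NK cells and plasmacytoid dendritic cells held 0. Red pulp macrophages had 164, 122 and 152 CPM and classical monocytes had 71.3, 86.4 and 103 CPM. The log2 ratio in classical monocytes was 0.53 (0.05 to 1.02) for B6.SLE123, and 0.83 without C0303. Nonclassical monocytes had 22.3, 9.62 and 25.3 CPM. Over all mononuclear phagocytes the levels were 46.8, 45.6 and 57.1 CPM, less than 2-fold apart. In classical monocytes 4.48% of genes lay past 2-fold in B6.SLE123, and none of the 5 members counted did.

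Fcer1g, the signal chain, was abundant in phagocytes, neutrophils and NK cells of all 3 libraries. Over all mononuclear phagocytes the log2 ratio of B6.SLE123 to control was 0.18, and -0.10 without C0303. Nonclassical monocytes had 6415 CPM in the control, 4725 CPM with Ang II and 5494 CPM in B6.SLE123. Classical monocytes had 3911, 3263 and 3661 CPM, neutrophils 3065, 2344 and 2498 CPM and red pulp macrophages 4571, 3907 and 5816 CPM. In red pulp macrophages the log2 ratio of B6.SLE123 was 0.35, and 0.053 without C0303. NK cells, in which the chain also serves activating NK receptors, had 4022, 3374 and 2895 CPM, with log2 ratios of -0.25 for Ang II and -0.47 for B6.SLE123. The C1q+ cells of B6.SLE123 had 10706 CPM. In B cells Fcer1g was at 8.54, 9.88 and 22.2 CPM (233, 351 and 659 UMIs), a log2 ratio of 1.38 (1.16 to 1.60) in B6.SLE123. The B6.SLE123 hashtags ran from 14.8 to 29.2 CPM, the control hashtags from 5.04 to 11.6 CPM and the Ang II hashtags from 3.31 to 15.5 CPM. Lyz2, a phagocyte transcript, was at 16.2, 14.2 and 12.7 CPM in the same B cell gates. S100a8, a neutrophil transcript, was at 15.2, 69.1 and 41.7 CPM there, and C1qa at 0.33, 0.34 and 0.88 CPM. The part of phagocyte RNA in the Fcer1g level of B cells was not tested. In B cells 6.57% of genes lay past 2-fold in B6.SLE123, and 2 of the 4 members counted did, Fcer1g and Fcgr4, of which Fcgr4 reached the 50 UMIs needed through the B6.SLE123 library.

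Fcgrt, the FcRn heavy chain, was highest in macrophages, monocytes and cDC1. In mononuclear phagocytes it was at 78.0, 81.4 and 163 CPM, a log2 ratio of 1.06 (0.80 to 1.33) in B6.SLE123, or 2.09-fold, and of 0.75 without C0303. Nonclassical monocytes had 97.2, 96.2 and 215 CPM, with a log2 ratio of 1.15 (0.65 to 1.66) in B6.SLE123 and of 0.83 without C0303. Red pulp macrophages had 139, 111 and 303.8 CPM and the C1q+ cells of B6.SLE123 had 283 CPM. Classical monocytes had 54.6, 49.6 and 72.1 CPM, and cDC1 had 103, 169 and 116 CPM. Without C0303 the log2 ratio of B6.SLE123 went from 1.13 to 1.53 in red pulp macrophages and from 0.40 to 0.14 in classical monocytes. In pooled B cells Fcgrt was lower in B6.SLE123 instead, with 14.2, 15.1 and 10.2 CPM and a log2 ratio of -0.47 (-0.69 to -0.25). The ratio was -0.38 in follicular and 0.14 in marginal zone B cells. Follicular B cells, at 21.7 CPM in the control, numbered 3734 there and 2184 in B6.SLE123. The part of class composition in the pooled value was not tested. Germinal centre B cells had 1, 0 and 0 UMIs.

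The A/I ratio was computed as the UMIs of Fcgr1, Fcgr3 and Fcgr4 over those of Fcgr2b. In mononuclear phagocytes it was 2.40 (2.11 to 2.75) in the control, 1.72 (1.49 to 1.99) with Ang II and 10.8 (9.27 to 12.5) in B6.SLE123. The log2 difference of B6.SLE123 was 2.16 (1.87 to 2.46), a 4.48-fold higher ratio, and it was 0.78 without C0303. B6.SLE123 hashtags read 3.36, 4.66, 25.6, 6.35, 2.93 and 3.89, the control hashtags 1.63 to 3.09 and the Ang II hashtags 1.18 to 5.17. C0305 fell within the control range and the other 5 lay above it. Fcgr4 made up 31.2%, 18.5% and 72.2% of the activating UMIs.

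In nonclassical monocytes the A/I ratio was 4.64, 3.18 and 59.8 (23.0 to 221), a log2 difference of 3.69 (2.23 to 5.62) in B6.SLE123, which rested on its 4 Fcgr2b UMIs and was 2.44 (0.97 to 4.39) without C0303. Classical monocytes had 1.81, 1.65 and 3.20, and red pulp macrophages 3.42, 2.42 and 10.5, the last 5.75 without C0303, where the log2 difference was 0.75 (-0.50 to 2.04). In neutrophils B6.SLE123 lay below the control instead, at 14.8 in the control, 7.43 with Ang II and 5.38 in B6.SLE123, with log2 differences of -1.0 (-1.62 to -0.41) and -1.46 (-2.09 to -0.87). The neutrophil hashtags overlapped, at 10.2 to 14 in the 4 control hashtags with Fcgr2b UMIs, 6 to 18 with Ang II and 4.4 to 14 in B6.SLE123. NK cells had 1.57, 1.64 and 2.62 and B cells 0.00769, 0.00457 and 0.0194. Over all kept cells the ratio was 0.377, 0.316 and 0.815, and the log2 difference of B6.SLE123 turned from 1.11 (1.003 to 1.22) to -0.17 without C0303.

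**Figure D5:**
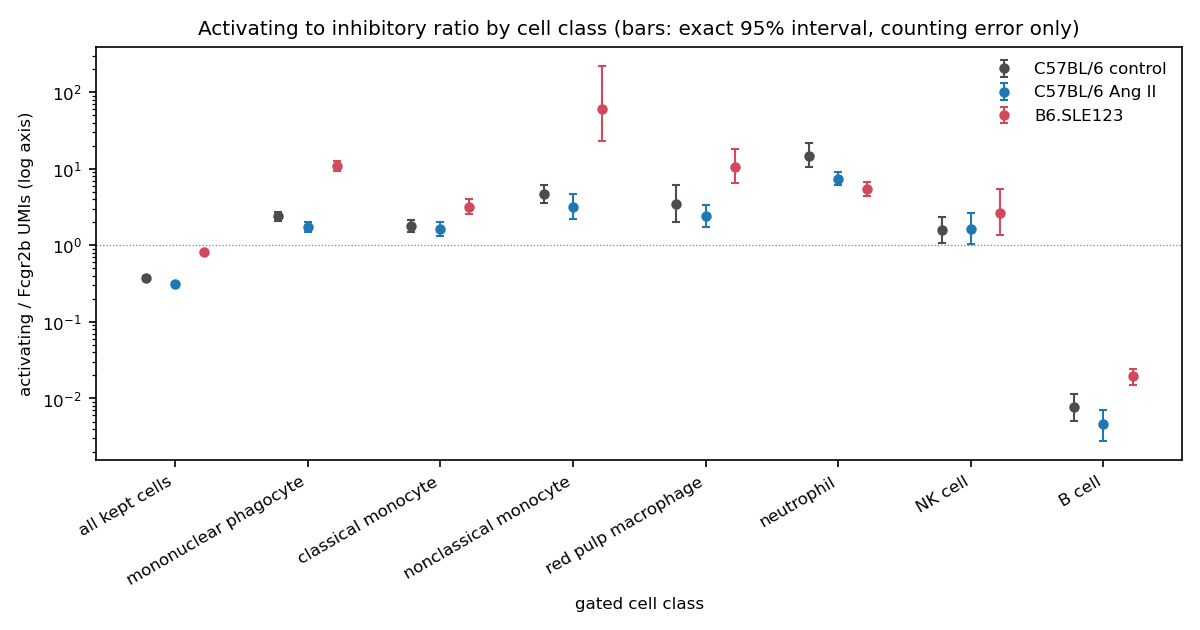
Ratio of activating (Fcgr1, Fcgr3 and Fcgr4) to Fcgr2b UMIs by class and library on a log axis, with exact 95% intervals. B6.SLE123 lies above the control in mononuclear phagocytes (10.8 against 2.40) and below it in neutrophils (5.38 against 14.8).

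Few members differed between the Ang II library and the control. In mononuclear phagocytes 1.43% of genes lay past 2-fold between Ang II and control, and 1 of 6 members did, Fcgr4, with a log2 ratio of -1.21 (-1.57 to -0.86). Its Ang II hashtags overlapped the control hashtags, and with the cell limits read as UMIs in place of genes the ratio was -0.63. No member counted was past 2-fold in B cells (1.42% of all genes were), NK cells (1.43%), neutrophils (3.97%), germinal centre B cells (4.92%), classical monocytes (1.53%) or nonclassical monocytes (2.19%). Fcer1g in mononuclear phagocytes was at 2686 CPM against 3847 CPM, a log2 ratio of -0.52, and the A/I ratio there differed by -0.48 (-0.77 to -0.20), or by -0.047 with the limits read as UMIs, a change that also moved the neutrophil ratio to -0.29.

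Other genes of the pathway were taken from 4 lists: other Fc receptors (11 genes), partner chains of immune receptors (4), activating ITAM signal (15) and inhibitory signal (9). The share of all genes past 2-fold in B6.SLE123 was 6.57% in B cells, 4.23% in mononuclear phagocytes and 11.7% in neutrophils. In B cells of B6.SLE123 against control, 1 of the 7 other Fc receptors counted was past 2-fold lower, with a list median log2 ratio of -0.16. It was Fcer2a (CD23), the low-affinity IgE receptor of follicular B cells, at 124 CPM against 309 CPM, a log2 ratio of -1.32 (-1.38 to -1.26). Of the 13 ITAM genes counted, 1 was higher, with a median of -0.08. It was Lcp2, the adaptor SLP-76, at 2.22 CPM (66 UMIs) against 0.81 CPM (22 UMIs), a log2 ratio of 1.46 (0.75 to 2.23). Lcp2 reached the UMIs needed to be counted through the B6.SLE123 library. Fcgr4, read as background in B cells of B6.SLE123, was at 1.82 CPM there. Mononuclear phagocytes had 192 CPM of Lcp2 in B6.SLE123 and 156 CPM in the control. The part of phagocyte RNA in the Lcp2 level of B cells was not tested. None of the 8 inhibitory signal genes or the 3 partner chains counted was past 2-fold. In mononuclear phagocytes 1 of the 3 other Fc receptors counted was higher, and none of the 14 ITAM genes (median 0.15), 8 inhibitory genes or 3 partner chains was. In neutrophils 1 of 3 partner chains was lower, Tyrobp, which encodes the adaptor DAP12, at 3302 against 6840 CPM (log2 ratio -1.05), and none of the 13 ITAM or 7 inhibitory genes counted was past 2-fold. With Ang II no gene of these lists was past 2-fold in these classes.

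The other Fc receptor that was higher in mononuclear phagocytes was Fcrl5, an Fc receptor-like protein of marginal zone B cells. It went from 1 UMI in the control, or 0.47 CPM, to 293 UMIs in B6.SLE123, or 103 CPM, a log2 ratio of 7.76 (5.27 to 13.07). It reached the 50 UMIs needed through the B6.SLE123 library, and its ratio rests on the 1 control UMI. Without C0303 there were 48 UMIs, or 31.6 CPM, and the log2 ratio was 6.06 (3.52 to 11.40). By B6.SLE123 hashtag there were 0, 11, 245, 33, 3 and 0 UMIs, again with C0303 the highest. The C1q+ cells held 243 of these UMIs, at 740 CPM, and Cd79a was at 24.4 CPM in the same cells. Marginal zone B cells themselves had 146, 152 and 163 CPM of Fcrl5.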

How the data were processed

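Spleen cells depleted of T cells were profiled with 10x 5′ v2 chemistry, with TotalSeq-C hashtags read as antibody counts. The deposited files hold raw UMI counts per gene and cell barcode, not normalized. Cell Ranger 6.0.0 is named in the file headers and mm10 in the labels, and the barcodes were already restricted to called cells. Whether reads were counted by strand is not given in the sources used here.

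Cells with over 200 and under 3500 genes and under 15% mitochondrial UMIs were kept. The study's methods give these limits as RNA counts, read here as genes detected. A cell carried a hashtag where its antibody count passed a threshold set by Otsu's method on log counts. Cells with 2 or more hashtags were removed as doublets, and doublets within a hashtag were not sought. Lineage gates required 5 UMIs (10 for neutrophil, plasma and erythroid) over 3 markers and sub-gates 3 UMIs over 2 markers. Cells that entered several gates (157, 195 and 318) or none (673, 723 and 1059) stayed out of classes. Gate limits were set after marker counts had been seen. The members and gene lists were chosen with earlier results of these data known. Promoter windows were placed by RefSeq starts on GRCm38.p6, and gene positions came from GENCODE on GRCm38.

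CPM used the UMIs of the class as its total. Intervals at 95% were exact Poisson for CPM, exact conditional for ratios and Clopper-Pearson for shares. Cells of 1 library are not replicates, so no p-value was computed. A gene was counted where both libraries together held at least 50 UMIs in a class with at least 20 cells in each, and called past 2-fold. Genes were named as members, as list genes past 2-fold, or by Pearson correlation of log2(CPM + 1), and some genes that met these rules are not reported here. For classes at 0 UMIs the limit was 3 counts. Alternatives were TMM scaling (edgeR 4.0.16, R 4.3.3), limits read as UMIs, no doublet removal, a gate at 2 times the marker UMIs, a mean over cells and leaving out each hashtag. Python 3.11.15, numpy 2.4.6, scipy 1.17.1, pandas 2.3.3 and matplotlib 3.10.9 were used.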

Additional observations from a re-analysis of the deposited data

Results flagged for a closer look

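The B6.SLE123 to control log2 ratio of 3 members differed in direction between classes, with all intervals given here covering counting error only, and the difference between classes was not tested. Fcgr2b was at 0.99 in neutrophils, against -2.87 in plasma cells, -1.56 in NK cells and -1.17 in mononuclear phagocytes. Fcer1g was at 1.38 in B cells, 0.96 in plasma cells and 0.18 in mononuclear phagocytes, against -0.47 in NK cells and -0.29 in neutrophils. The phagocyte value of Fcer1g turned to -0.10 without B6.SLE123 hashtag C0303. Fcgrt was at 1.06 in mononuclear phagocytes and -0.47 in B cells.

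Fcgr4 also appeared in cells that entered no gate. In the B6.SLE123 library these 1059 cells had 173 CPM (153 to 195; 274 UMIs), against 6.5 CPM in the control, whose interval reached 14.2 CPM, and 6.8 CPM in the Ang II library. What these cells are was not tested.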

How the results depend on the processing

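Values are log2 ratios to the control. Without B6.SLE123 hashtag C0303 the A/I ratio over all kept cells turned from 1.11 to -0.17, and with Fcgr3 alone as the activating receptor it was -0.0040. Leaving out each hashtag gave -0.17 to 1.49 for that ratio, 0.78 to 2.33 for A/I in mononuclear phagocytes (2.16), 0.091 to 2.51 for Fcgr4 there (2.21), -0.11 to -9.39e-05 for Fcgr2b in B cells (-0.03), and for Ang II -0.40 to 0.13 for A/I over all kept cells (-0.25). With the gene limits read as UMIs, Fcgr2b in B cells was 0.10, Fcgr4 in mononuclear phagocytes 1.48 for B6.SLE123 and -0.63 for Ang II, A/I over all kept cells 1.28 for B6.SLE123, and for Ang II A/I was -0.047 in mononuclear phagocytes and -0.29 in neutrophils. With a mean over cells, Fcgr2b in B cells was 0.079 and Fcgr4 in mononuclear phagocytes 1.74. With Fcgr3 alone, A/I in mononuclear phagocytes was 0.67 and for Ang II over all kept cells -0.058. With Fcgr4 alone, A/I was 2.47 over all kept cells and 3.37 in mononuclear phagocytes for B6.SLE123, and -0.84 and -1.24 for Ang II. The cause of these shifts was not tested. Direction was kept in 64 of 75 values with limits read as UMIs, 80 of 86 with a mean over cells, 75 of 80 under TMM scaling, 77 of 86 without doublet removal, 78 of 84 with the stricter gate and 962 of 1032 on leaving out a hashtag. TMM moved the median of all genes by over 0.1 only in plasma cells, by 0.173 for B6.SLE123 and 0.266 for Ang II. Limits read as UMIs left under 20 control cells in the germinal centre and plasma gates, so they gave no value there. The self-made gates, 3 mixed libraries and few control germinal centre and plasma cells limit precision. No paired analysis was possible because each group was 1 library and the result came from no test.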

Other observations

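Genes with a pattern similar to each member were sought by Pearson correlation of log2(CPM + 1) over 46 class-by-library points and 10861 genes. The points share libraries and depths, so these are descriptions without a test. Among the nearest to Fcgr1 were Cd302 (r = 0.93) and F10 (0.92). Fcgr3 was nearest to Sqor (0.94), Pygl (0.93) and Xdh (0.93), and Fcgr4 to Cd300ld3 (0.93), 6430548M08Rik (0.91) and Pilrb2 (0.90). Among the nearest to Fcer1g were Fyb (0.92) and Fam129a (0.91), and Fcgrt was nearest to Sdc3 (0.87), P2ry6 (0.86) and Tifab (0.86). Fcgr2b had lower values, nearest to Napsa (0.79), Plcg2 (0.76) and Syk (0.73), the last 2 of which serve B cell receptor signalling.

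Basophils and mast cells, which carry Fcgr3 beside the IgE receptor, had 414 CPM of Fcgr3 in the control (21 cells) and 378 CPM in B6.SLE123 (20 cells). Neutrophils had 2, 2 and 23 Fcgrt UMIs in the 3 libraries, B6.SLE123 last.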
